A study of Mus musculus with 10 samples.

Results

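The genes described here are 10 genes of iron storage and transport, taken by symbol from the 55471 genes counted in every library: Fth1, Ftl1, Slc11a1, Slc11a2, Slc40a1, Tfrc, Ireb2, Aco1, Ncoa4 and Steap3. All 10 were found in all 10 files, and all 10 passed the filter on low counts that left 19263 genes for testing. The cells were primary microglia, the macrophages that live in brain tissue, from mice of WT genotype, kept in DMEM with serum, and their total RNA was sequenced. In 5 libraries the cells had received gapmers targeting 3222401L13Rik, a long noncoding RNA, and in 5 libraries control gapmers. A gapmer is an antisense oligonucleotide that leads RNase H to cut its target RNA. The sources used here do not give the age of the animals, the gapmer dose or the time of treatment. The labels do not say whether replicates were separate cultures or animals. The p-values therefore measure only the spread between these libraries, which may be technical.

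Iron enters a macrophage bound to transferrin through the transferrin receptor or inside engulfed cells, is reduced and pumped out of the endosome or phagosome, and is then stored in ferritin or exported through ferroportin. Iron regulatory proteins sense the free pool: when iron is scarce they bind hairpins called iron-responsive elements, blocking translation of ferritin and ferroportin messages and protecting the transferrin receptor message from decay. Microglia are known for taking up and storing iron in the brain.

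Both iron regulatory proteins bind these hairpins, which link the messages to iron, so the matches found in the members are shown with their values. Each window is 29 bases of the transcript strand in GRCm38, with the bulged C and the 6-base loop CAGTGN in capitals. The search asked for a C, 5 bases, CAGTGN, and 5 bases that pair with the first 5, with G-T pairs allowed, in the untranslated regions of 1 GENCODE M21 transcript per gene.
Fth1 5′ UTR, chr19:9982732-9982760, plus strand: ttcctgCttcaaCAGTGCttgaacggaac
Ftl1 5′ UTR, chr7:45459779-45459807, minus strand: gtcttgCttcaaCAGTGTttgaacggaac
Slc40a1 5′ UTR, chr1:45925465-45925493, minus strand: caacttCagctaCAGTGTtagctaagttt
Tfrc 3′ UTR, chr16:32631219-32631247, plus strand: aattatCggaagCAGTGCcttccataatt
Tfrc 3′ UTR, chr16:32631598-32631626, plus strand: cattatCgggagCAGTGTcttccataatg
Tfrc 3′ UTR, chr16:32631663-32631691, plus strand: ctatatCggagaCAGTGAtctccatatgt
Tfrc 3′ UTR, chr16:32631710-32631738, plus strand: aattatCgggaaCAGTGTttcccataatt
The storage and export genes carried 1 match each in the 5′ UTR, and Tfrc carried 4 in the 3′ UTR. A match stood in 0.102% of the 20573 genes with a 5′ UTR and in 0.513% of the 21624 genes with a 3′ UTR. The other 6 members had no match in the transcript searched, Slc11a2 among them, one of whose transcript forms is known to carry an element.

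The libraries differed between the groups in ways that bear on every value below. The RNA that the gapmers target, 3222401L13Rik, had 22, 38, 24, 33 and 29 reads in the libraries labelled knockdown, against 30, 29, 28, 33 and 34 reads in control libraries. Its log2 fold change was -0.17 ± 0.23 (SE; edgeR quasi-likelihood test, adjusted p = 0.541). At these counts the target was not detectably lower, and 48.5% of its reads are expected from the background described next, so the values do not settle whether it was knocked down. The group is therefore called labelled knockdown throughout. In units of 1000000 reads, library totals were 5.59 to 6.64 in labelled knockdown and 4.32 to 5.64 in control libraries (exact two-sided permutation test, p = 0.0159). Reads on 1407 olfactory receptor genes, a family used by the olfactory epithelium, served as a measure of reads spread over the genome. Their density was 0.260 ± 0.0682 reads for each kilobase of exon and 1000000 reads counted in labelled knockdown and 0.606 ± 0.150 in control libraries (SD over 5 libraries each; p = 0.00794 by the same exact permutation test), and the groups did not overlap. On lane 7 the mean density was 0.245 in labelled knockdown and 0.647 in control libraries, and on lane 8 it was 0.283 in labelled knockdown and 0.545 in control libraries. The density times a gene's exon length gave the reads expected from this background, and their percentage of the gene's reads is its background share. These differences move with the group, and beyond the alternatives given with the results their part in the members' values was not tested.

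The cells carried the markers of microglia. All 12 microglial markers were detected in both groups, with a summed level of 4484 to 5103 CPM (counts per 1000000 of the library size after TMM scaling between libraries, used for CPM throughout) in labelled knockdown and 3663 to 4376 in control libraries, and 11 of them were called higher, beside the 22.9% of all tested genes called higher and the 75.7% of genes with a background share under 5%. Markers of border macrophages and monocytes summed to 704 to 816 CPM in labelled knockdown and 574 to 687 CPM in control libraries. Of these, Mrc1 was at 668 CPM over all libraries. The median gene of that list was at 4.07 CPM in labelled knockdown and 7.35 CPM in control libraries. Its median background share was 47.8%. Csf1r, the highest of the 12 microglial markers, was at 653 CPM, and neither it nor Mrc1 is given per length here. In labelled knockdown libraries the summed markers of astrocytes were 158 to 192 CPM, of oligodendrocytes 105 to 118, of endothelium 148 to 161, of neurons 25.0 to 39.5, of fibroblasts and mural cells 17.9 to 31.6 and of neutrophils 9.03 to 14.0. In control libraries those of astrocytes were 164 to 184 CPM, of oligodendrocytes 113 to 122, of endothelium 151 to 171, of neurons 47.9 to 77.1, of fibroblasts and mural cells 36.8 to 52.2 and of neutrophils 15.7 to 26.8. The summed ranges of neurons, fibroblasts and neutrophils did not overlap between the groups. Among single tested genes, 14.2% did not overlap with labelled knockdown lower. Every member of these lists was detected in both groups. Their median background share was 51.8% for neurons, 83.6% for fibroblasts and mural cells and 30.5% for neutrophils. Of the other lists' members, 2 of 8 for astrocytes, 1 of 6 for endothelium and 2 of 7 for border macrophages were called higher. Called lower were 7 of 8 for neurons, 6 of 8 for fibroblasts and mural cells and 4 of 6 for endothelium. So were 3 of 10 for oligodendrocytes, 2 of 8 for astrocytes and 2 of 8 for neutrophils. The same held for 3 of 7 for border macrophages and 1 of 8 for erythroid cells. These counts stand beside 31.3% of all tested genes called lower, and 62.4% of those at a background share of 20% or more. Erythroid markers, which would bring iron genes of their own, summed to 7.41 to 12.9 CPM in labelled knockdown and 11.8 to 22.2 CPM in control libraries. Their median background share was 181%. Hba-a2 was at 0 in both groups, Hbb-bt at 0 in labelled knockdown and Hba-a1 at 0 in control libraries. The part of these other markers in the results was not tested. In bulk RNA, fewer cells of a type and less RNA per cell cannot be told apart. At such background shares, reads from these cell types and background reads cannot be told apart either.

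Of the 10 iron genes, 8 were called higher in the labelled knockdown libraries and 0 lower, with changes of 0.18 to 0.37 on the log2 scale, and the direction of 1 of them, Steap3, turned under scaling to library totals or to low-background genes. The 8 were Fth1, Slc11a1, Slc11a2, Slc40a1, Tfrc, Ireb2, Aco1 and Steap3 (edgeR quasi-likelihood test, adjusted p under 0.05 over all 19263 genes). Ferritin light chain Ftl1 and the ferritin cargo receptor Ncoa4 were not called. The count of 8 of 10 stands beside a background of 22.9% of tested genes called higher and 31.3% called lower, and DESeq2 gave the same 8 members higher and 0 lower, as did an unadjusted p under 0.05. Among the 4686 genes whose background share was under 5%, 75.7% were called higher. All 8 called members lay under that share, at 0.0197% to 4.59%, and the other members lay above it, Ftl1 at 8.10% and Ncoa4 at 15.8%. The median log2 fold change was 0.27 over the members, 0.24 over genes under a 5% share and -0.10 over all tested genes.

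**Figure D1:**
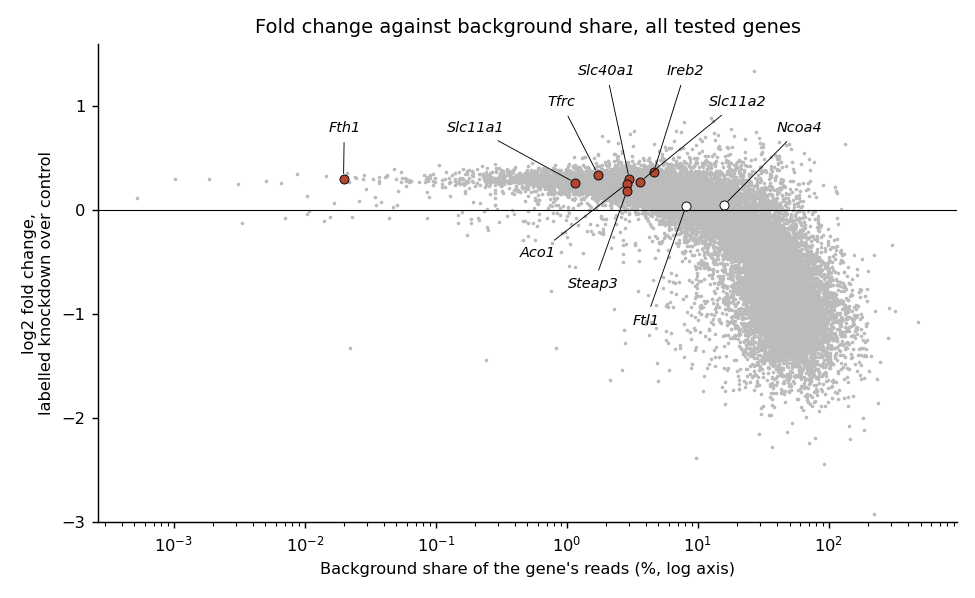
Log2 fold change of labelled knockdown over control libraries (y axis) against the background share of each gene's reads in percent (x axis, log scale) for the tested genes (grey points), with the 10 iron genes as large circles, filled where called. The 8 called genes lie between 0.0197% and 4.59% background share within the band of other genes at the same share, and Ftl1 and Ncoa4 lie further right with changes of 0.04 and 0.05; the sign of Steap3, Ftl1 and Ncoa4 turns under other scalings.

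Scaling moved all genes together. The median over all tested genes was -0.10 with TMM scaling, -0.24 with upper-quartile scaling, -0.30 with library totals, and -0.34 with TMM factors computed on genes under a 5% background share. With those low-background factors the members had a median change of 0.03, and 1 of the 10, Fth1, was called (log2 fold change 0.06, edgeR adjusted p = 0.032), beside 1.65% of all genes called higher and 44.6% lower, and, among genes under a 5% share, 6.44% higher and 5.38% lower. Upper-quartile scaling called 5 members higher, beside 8.75% of all genes higher and 37.4% lower, and library totals called 3, beside 3.94% higher and 40.9% lower. Set against the median of the low-background genes, the members stood 0.12 above it for Ireb2, 0.10 for Tfrc, 0.06 for both Fth1 and Slc40a1, 0.03 for Slc11a2, 0.02 for Slc11a1 and 0.01 for Aco1. Steap3 stood -0.06 from it, Ncoa4 -0.19 and Ftl1 -0.21. Ireb2 thus stood above 93.6% of low-background genes and Tfrc above 89.9%, while Aco1 stood above 55.2%. For Ncoa4 and Ftl1 the nearer comparison is with genes at a 5% to 20% share, whose median was 0.08. For Fth1 it is with genes under a 1% share, whose median was 0.28, beside 0.30 for Fth1. The part of background in these changes was tested only through the alternatives named here. With the expected background reads subtracted, 0 of the 8 members that could be tested were called by edgeR, 2 at an unadjusted p under 0.05, beside 0.725% of 4687 genes called higher and 1.02% lower.

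**Figure D2:**
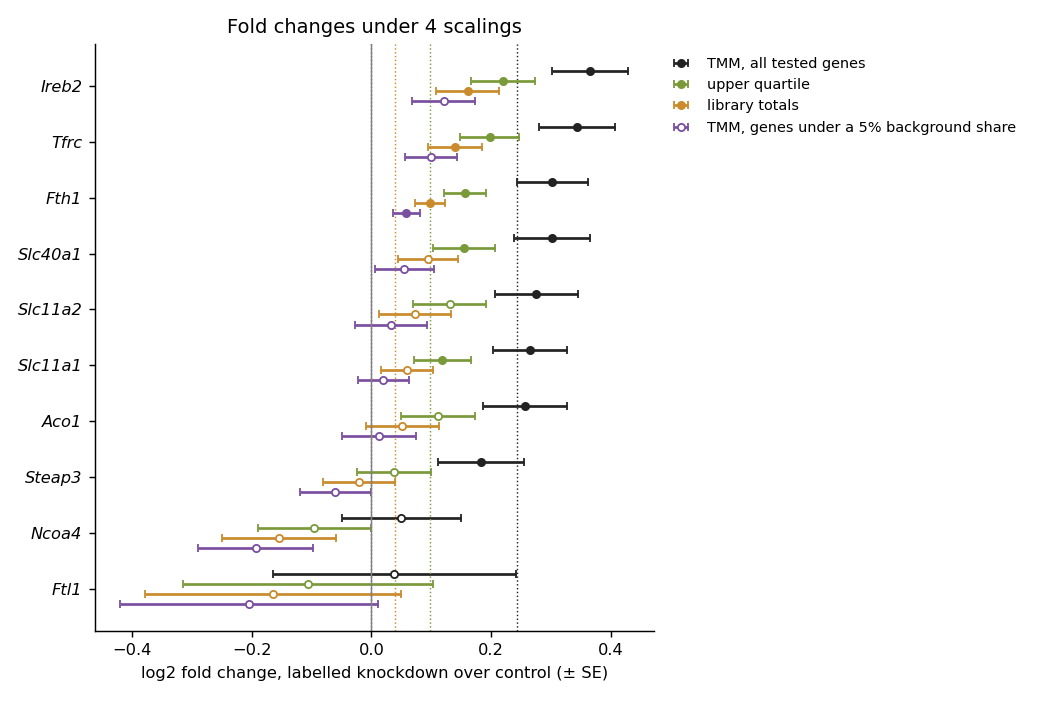
Log2 fold change of labelled knockdown over control libraries (x axis, ± SE) for each iron gene (rows) under 4 scalings (colours), filled where called; dotted lines mark the median of genes under a 5% background share under each scaling. Every gene shifts left with the dotted lines, Steap3 crosses 0 under library totals and low-background factors, and Ftl1 and Ncoa4 cross it under all but the TMM factors of all tested genes.

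Ferritin stores iron in a shell of heavy chains, which oxidise it, and light chains, which help it mineralise. The heavy chain gene Fth1 (ENSMUSG00000024661, chr19:9980598-9985098, plus strand) was the most abundant member. It had 8063, 8206, 8579, 7596 and 7993 CPM in labelled knockdown libraries 1 to 5, against 6904, 6028, 6438, 6195 and 7223 CPM in control libraries 1 to 5. The groups did not overlap. Behind these lay 42649 to 50828 reads in labelled knockdown and 29007 to 40448 reads in control libraries. That was 0.745% of all reads in labelled knockdown and 0.688% in control libraries. The log2 fold change was 0.30 ± 0.06 (SE, edgeR adjusted p = 4.0e-05), and it was 0.10 with library totals. By CPM, Fth1 ranked 8 of the 19263 tested genes, and per kilobase of annotated exon it ranked 17. Its heavy-chain pseudogenes Fth-ps2 and Fth-ps3 had 5 to 14 and 3 to 18 reads per library.

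The light chain gene Ftl1 (ENSMUSG00000050708, chr7:45457944-45459884, minus strand) had few reads, 47, 34, 50, 37 and 32 in labelled knockdown libraries and 36, 34, 34, 35 and 44 in control libraries. This gave 7.04 ± 1.54 CPM in labelled knockdown and 6.84 ± 0.644 CPM in control libraries (SD, n = 5 each), with overlapping groups. The log2 fold change of 0.04 had a 95% interval of -0.37 to 0.44 (edgeR adjusted p = 0.883), so a change of this size was not detectable at this depth. Ftl1 is uncertain because much of its sequence is repeated elsewhere. Of the 919 stretches of 50 bases in its transcript, 90.6% also stood, letter for letter, in transcripts of 17 other genes, and those genes with Ftl1 had 67 to 85 reads in labelled knockdown and 70 to 88 in control libraries. The sources used here do not say how reads with several matching places were counted. Among the 17, Gm10252 on the other strand and the miRNA gene Gm22133 on the same strand overlap the exons of Ftl1 itself, by 355 and 109 bases. They are not copies elsewhere, and had 1 to 9 reads and 0 reads.

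Ncoa4, the receptor that carries ferritin to the lysosome for iron release, had 24.0, 25.2, 24.6, 23.2 and 28.6 CPM in labelled knockdown libraries and 24.2, 19.7, 26.7, 25.1 and 25.4 CPM in control libraries. The groups overlapped, and the log2 fold change of 0.05 had a 95% interval of -0.15 to 0.25 (edgeR adjusted p = 0.683). With low-background factors the change was -0.19, also not called. In Ncoa4, 43.1% of 50-base stretches are shared with the processed pseudogene Gm6768, which had 22 to 58 reads against 95 to 168 for Ncoa4. Both genes are therefore uncertain in level.

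**Figure D3:**
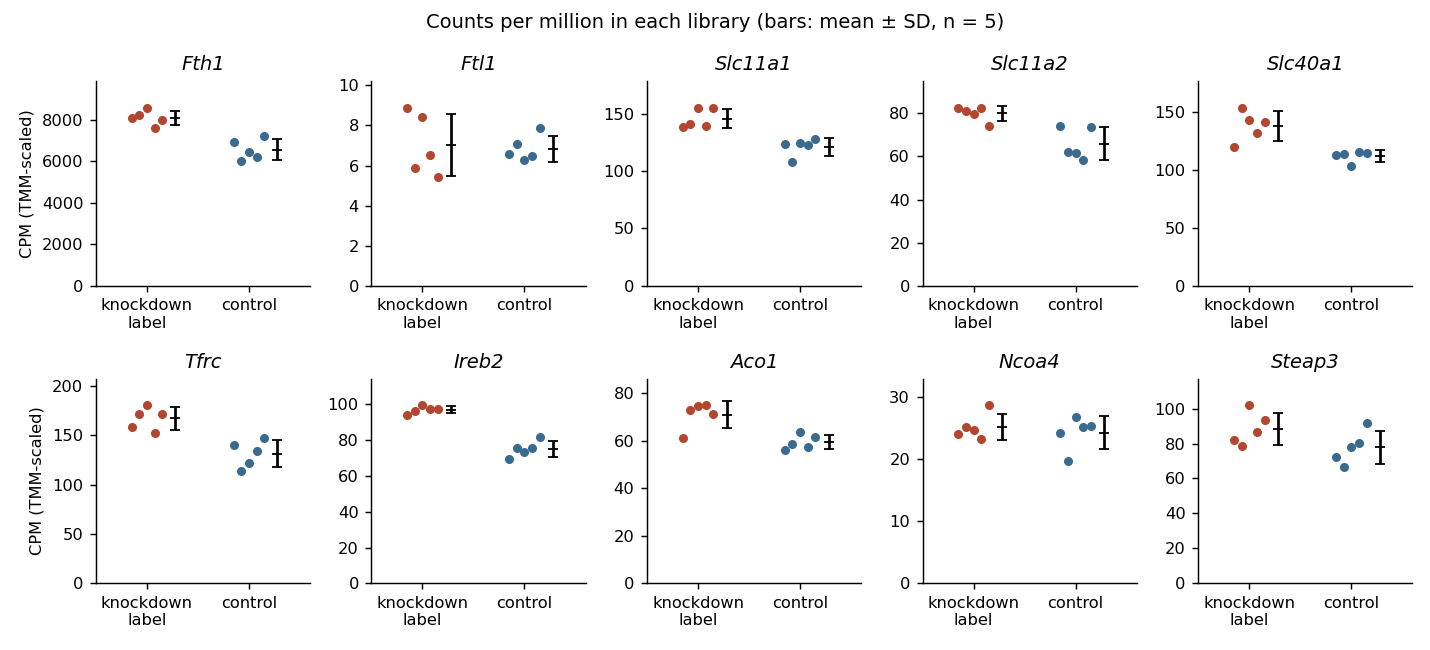
CPM after TMM scaling (y axis, from 0) of the 10 iron genes in each labelled knockdown library (left, red) and control library (right, blue), with mean ± SD (n = 5 each). The groups do not overlap for Fth1, Slc11a1, Slc40a1, Tfrc and Ireb2 and overlap for the other 5 genes; with other scalings Steap3, Ftl1 and Ncoa4 change sign.

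Uptake through transferrin depends on Tfrc, the transferrin receptor (ENSMUSG00000022797, chr16:32608920-32632794, plus strand). It had 159, 172, 180, 153 and 172 CPM in labelled knockdown libraries, against 140, 113, 122, 134 and 147 CPM in control libraries. Every labelled knockdown library lay above every control library in TMM-scaled CPM. Per library total the lowest labelled knockdown library, at 146.1 reads per 1000000, lay just under the highest control library, at 146.3. The log2 fold change was 0.34 ± 0.06 (SE, edgeR adjusted p = 1.7e-05). With low-background factors it was 0.10 and was not called (adjusted p = 0.053). Steap3, the endosomal reductase that turns ferric into ferrous iron after transferrin uptake, averaged 88.5 ± 9.24 CPM in labelled knockdown (78.7 to 102) and 77.8 ± 9.37 CPM in control libraries (66.7 to 91.6; SD, n = 5 each). Its groups overlapped, and its log2 fold change of 0.18 ± 0.07 (SE, edgeR adjusted p = 0.0267) was the smallest among the called members. The call was lost without control replicate 1, control replicate 2 or labelled knockdown replicate 3, and with a stricter filter on low counts, as was that of Aco1 (edgeR adjusted p = 0.082).

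Ferrous iron leaves the endosome through Slc11a2, also called DMT1, and the phagosome through Slc11a1, also called NRAMP1, a transporter of macrophages and their relatives. Slc11a1 had 139, 141, 155, 139 and 155 CPM in labelled knockdown libraries, against 124, 107, 124, 123 and 128 CPM in control libraries, with no overlap in TMM-scaled CPM. Its log2 fold change was 0.26 ± 0.06 (SE, edgeR adjusted p = 3.4e-04). Slc11a2 had 82.6, 81.2, 79.8, 82.6 and 73.9 CPM in labelled knockdown libraries, against 74.3, 61.9, 61.6, 58.4 and 73.8 CPM in control libraries. The lowest labelled knockdown library, at 73.9 CPM, lay under the highest control library, at 74.3 CPM, and the log2 fold change was 0.28 ± 0.07 (SE, edgeR adjusted p = 8.4e-04). Annotated exons of Slc11a2 overlap Gm5475 on the other strand by 402 bases, and Gm5475 had 11 to 31 reads against 298 to 473 for Slc11a2.

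Export is the task of Slc40a1, ferroportin, the only known iron exporter of mammalian cells (ENSMUSG00000025993, chr1:45908068-45926523, minus strand). It had 120, 154, 143, 132 and 142 CPM in labelled knockdown libraries, against 113, 114, 103, 116 and 114 CPM in control libraries. The groups did not overlap in TMM-scaled CPM, with labelled knockdown library 1 nearest to the control range. Per library total they did, as did those of Slc11a1. The log2 fold change was 0.30 ± 0.06 (SE, edgeR adjusted p = 9.6e-05).

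The sensors are Ireb2, which encodes iron regulatory protein 2 and is degraded as protein when iron is plentiful, and Aco1, which encodes iron regulatory protein 1 and works as a cytosolic aconitase when it holds an iron-sulfur cluster. Ireb2 had 94.0, 96.5, 99.4, 97.3 and 97.3 CPM in labelled knockdown libraries, against 69.6, 75.8, 73.4, 75.4 and 81.8 CPM in control libraries. The groups were well apart, and its log2 fold change of 0.37 ± 0.06 (SE, edgeR adjusted p = 8.0e-06) was the largest of the 10. It fell under the threshold with low-background factors, at 0.12 (adjusted p = 0.055). Aco1 had 61.3, 73.1, 74.4, 74.8 and 71.4 CPM in labelled knockdown libraries, against 56.1, 58.6, 63.7, 57.3 and 61.6 CPM in control libraries, and its log2 fold change was 0.26 ± 0.07 (SE, edgeR adjusted p = 0.0018). Its groups overlapped through labelled knockdown library 1, at 61.3 CPM. Of the 10 members, 5 had groups that did not overlap in CPM, all higher in labelled knockdown. Beside this, 12.6% of tested genes did not overlap in that direction and 14.2% in the other. All 5 had a background share under 5%, where 75.7% of tested genes were called higher. Overlap was not counted separately among genes under that share. The separation depended on the scaling: per library total, without TMM, 2 of the 10 did not overlap, Fth1 and Ireb2, beside 2.29% of tested genes higher.

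Both lanes held both groups, so each can be looked at alone. On lane 7, with 3 libraries a group, the same 8 members were called higher by edgeR, with Tfrc at 0.46 and Ireb2 at 0.43, beside 20.7% of tested genes called higher and 28.9% lower. On lane 8, with 2 libraries a group, 0 members were called by edgeR and 6 had an unadjusted p under 0.05, with Tfrc at 0.23 and Ireb2 at 0.33. On that lane 0.328% of tested genes were called higher and 0.749% lower, so a count of 0 is near the background. The 8 called members were all positive on both lanes, and Ftl1 was 0.24 on lane 7 and -0.24 on lane 8.

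Levels can be compared between genes only per length. In RPKM, which is here the TMM-scaled CPM divided by the kilobases of annotated exon, over all libraries, Fth1 stood at 2111 ± 260 (SD, n = 10), which was 58.6 times the level of the next gene, Slc11a1, at 36.0 ± 4.06. Tfrc followed at 24.1 ± 3.58. Steap3 at 14.5, Aco1 at 14.5, Slc40a1 at 13.9, Slc11a2 at 11.5 and Ireb2 at 9.08 came next, and no neighbours among these 5 were further apart than the sum of their SDs. Ftl1 at 5.18 and Ncoa4 at 2.63 were lowest, both with shared sequence. The exon length joins all annotated transcripts of a gene, 3469 bases for Fth1, 3705 for Slc11a1, 6185 for Tfrc and 9000 for Slc40a1. In the 1 transcript searched for hairpins, the lengths were 1494, 2315, 4890 and 3370 bases. The order of levels and the 58.6 times therefore depend on the length used.

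**Figure D4:**
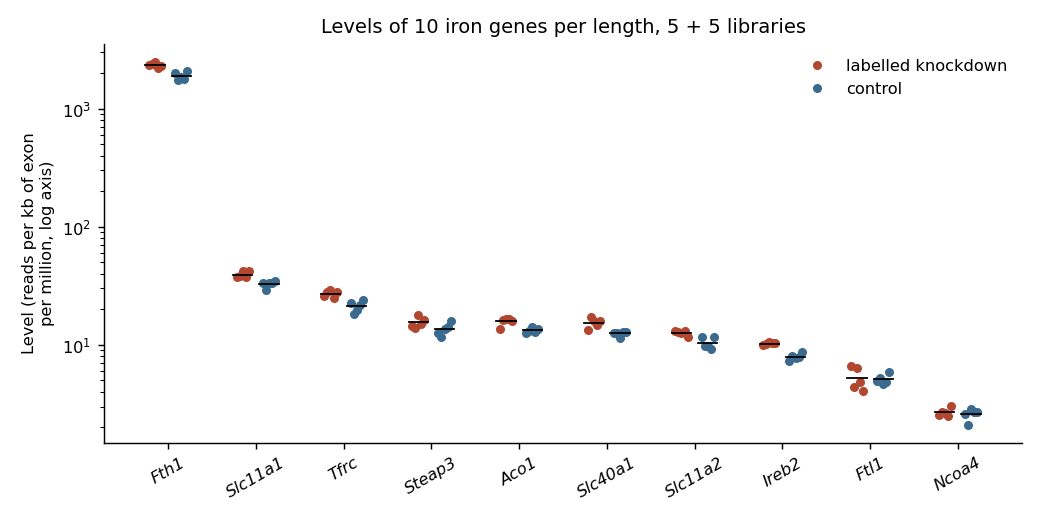
Level per length (RPKM, y axis, log scale) of the 10 iron genes in order of their mean over 10 libraries, with each labelled knockdown library (left, red) and control library (right, blue) as a point and group means as bars. Fth1 stands 58.6 times above Slc11a1, and Steap3, Aco1, Slc40a1, Slc11a2 and Ireb2 lie close together. These values and the order depend on the exon length used, which joins all annotated transcripts of a gene.

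Ratios of members within a library need no scaling between libraries, and 3 were compared. They still hold background reads, whose density differed between the groups. The ratio of Fth1 to Ftl1 reads was 1190 ± 241 in labelled knockdown and 963 ± 81.3 in control libraries (SD, n = 5 each). It rests on 32 to 50 Ftl1 reads in labelled knockdown and 34 to 44 in control libraries. Most Ftl1 sequence is shared with other genes, so the size of the ratio is uncertain. The background share was 0.0197% for Fth1 and 8.10% for Ftl1. On log2 ratios the exact permutation test, two-sided, gave p = 0.103, or 0.155 adjusted over the 3 ratios. The ratio of the exporter Slc40a1 to the importer Tfrc was 0.827 ± 0.0554 in labelled knockdown and 0.860 ± 0.0881 in control libraries (exact permutation p = 0.524). The ratio of Ireb2 to Aco1 was 1.37 ± 0.0941 in labelled knockdown and 1.27 ± 0.0714 in control libraries (exact permutation p = 0.0556, adjusted 0.155). None passed the threshold. After the expected background reads were subtracted from both genes, the Ireb2 to Aco1 difference was 0.14 on the log2 scale with an adjusted exact permutation p of 0.0476.

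**Figure D5:**
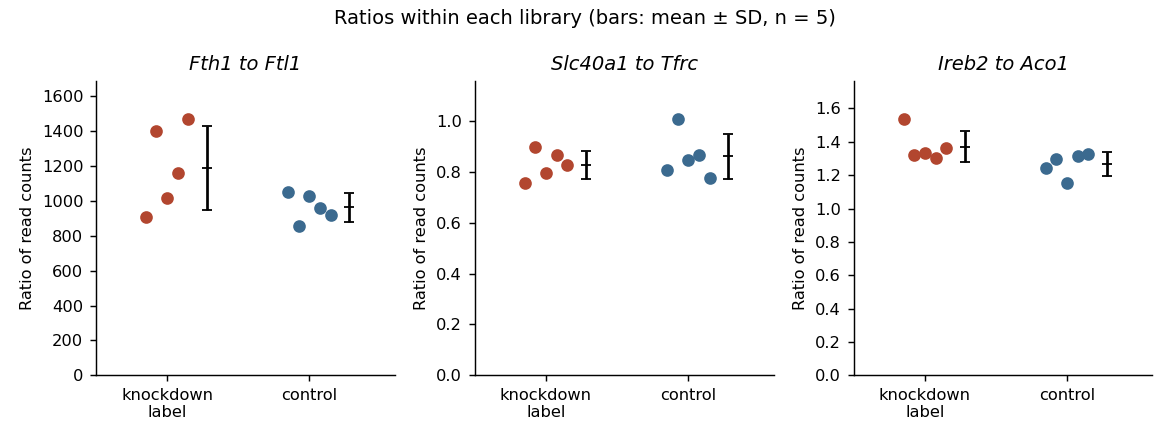
Ratio of read counts of Fth1 to Ftl1, Slc40a1 to Tfrc and Ireb2 to Aco1 (y axes, from 0) in each labelled knockdown library (left, red) and control library (right, blue), with mean ± SD (n = 5 each). The groups overlap in all 3 panels, and labelled knockdown library 1 has the highest Ireb2 to Aco1 ratio, at 1.53. The Fth1 to Ftl1 ratio rests on few Ftl1 reads and its size is uncertain.

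Within groups, the members did not vary as one. Deviations of log2 CPM from the group mean, over 10 libraries, gave a Pearson r of 0.854 between Fth1 and Tfrc, 0.847 between Slc11a1 and Ncoa4 and 0.200 between Fth1 and Slc40a1. Of all tested genes, Plec, Slfn2 and Akr1a1 deviated most like Fth1 (r = 0.989, 0.987 and 0.983), and Reep5, Stap1 and Ptk2b most like Tfrc (r = 0.971, 0.970 and 0.968). Cul3, Fam168b and Tm9sf3 deviated most like Slc11a1 (r = 0.976, 0.976 and 0.954), and Gm37168, AC125156.1 and Nme4 most like Slc40a1 (r = 0.956, 0.954 and 0.943). These are descriptions over libraries that also share depth and background density.

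The other genes of iron handling split by their background share. Of 69 tested genes in 5 lists beyond the members, 29 were called higher and 10 lower, with a median log2 fold change of 0.16, beside the 22.9% and 31.3% of all tested genes. Of the 27 with a share under 5%, 25 were higher and 0 lower, and of the 19 with a share of 20% or more, 0 were higher and 9 lower (edgeR). Over all tested genes, 75.7% of those under a 5% share were higher and 0.491% lower, and 0.121% of those at 20% or more were higher and 62.4% lower. With low-background factors 2 of the 69 were called higher and 18 lower.

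Heme handling had 9 genes higher, 3 lower and 6 not called of 18, with a median of 0.18. The 9 higher genes were the 9 with a share under 5%, where 75.7% of all tested genes were higher. Both of the 2 genes at a share of 20% or more were lower, beside 62.4% of all such genes. Slc48a1, the transporter that moves heme out of the lysosome, averaged 152 ± 2.76 CPM in labelled knockdown and 117 ± 6.86 CPM in control libraries (SD, n = 5 each), and its log2 fold change was 0.38. It stayed called with low-background factors, at 0.14 (edgeR adjusted p = 0.0070). Hmox1, the heme oxygenase that frees iron from heme, averaged 506 ± 26.6 CPM in labelled knockdown and 411 ± 43.9 CPM in control libraries, a change of 0.30. Alas1, the first enzyme of heme synthesis outside red cells, changed by 0.33 and the heme exporter Flvcr1 by 0.34. The median over all genes under a 5% share was 0.24. It was 0.28 over those under a 1% share, where Slc48a1 and Hmox1 lay.

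Uptake and export accessories had 5 genes higher, 4 lower and 8 not called of 17 tested, with a median of -0.26, counts near the 22.9% and 31.3% of all tested genes. Trf, transferrin itself, averaged 506 ± 35.7 CPM in labelled knockdown and 420 ± 14.3 CPM in control libraries, a log2 fold change of 0.27. Over all genes under a 1% background share, where Trf lay, the median was 0.28. The zinc and iron importer Slc39a8 changed by 0.29 and the receptor partner Hfe by 0.27. The reductase Steap2 averaged 3.27 ± 1.77 CPM in labelled knockdown and 8.25 ± 1.50 CPM in control libraries, a change of -1.34, with a background share of 90.4%.

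Mitochondrial iron and iron-sulfur genes had 5 higher, 1 lower and 8 not called of 14 tested, with a median of 0.19. Of the 5 with a share under 5%, 4 were higher, beside 75.7% of all tested genes under that share. Hspa9, a chaperone of iron-sulfur cluster transfer, averaged 402 ± 19.0 CPM in labelled knockdown and 313 ± 28.2 CPM in control libraries, a log2 fold change of 0.36, and stayed called with low-background factors at 0.11 (edgeR adjusted p = 0.0079). The scaffold Iscu changed by 0.35 and Cisd2 by 0.31. Regulators of iron genes had 9 higher, 2 lower and 5 not called of 16, with a median of 0.18. Of the 8 regulators with a share under 5%, 7 were higher, near that 75.7%. Of the 4 at 20% or more, 2 were lower, beside 62.4% of all such genes. Nfe2l2, which encodes the NRF2 factor that drives ferritin genes, averaged 402 ± 22.3 CPM in labelled knockdown and 328 ± 24.7 CPM in control libraries, a change of 0.29. Bach1, the heme-sensing repressor of the same genes, changed by 0.28, Hif1a by 0.27 and the bone morphogenetic protein receptor Bmpr2 by 0.29. The median over all genes under a 5% share was 0.24. It was 0.28 over those under a 1% share, where Hspa9 and Nfe2l2 lay. Bmpr2 lay just above a 5% share, at 5.29%.

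Of 10 genes known for an iron-responsive element, 5 of them members, 6 were higher, 0 lower and 4 not called, with a median of 0.23 (edgeR). All 6 had a background share under 5%, where 75.7% of all tested genes were higher. Fth1 and Slc40a1, with a 5′ UTR hairpin and each at 0.30, and Tfrc, with its 3′ UTR hairpins, at 0.34, all had positive changes. Ftl1, with the hairpin shown above, was not called, nor was Alas2, the red-cell enzyme of heme synthesis, which has a 5′ UTR match too and a log2 fold change of -0.45. Epas1, which encodes HIF-2 alpha, changed by 0.18 and turned to -0.06 with low-background factors.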

How the data were processed

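The deposited tables, 1 per library, give unnormalized counts of reads per gene. Per the submitters' processing notes, bcl2fastq was used and the build was GRCm38, also called mm10. Per the labels' protocols, libraries were strand-marking total RNA. The sources used here do not name the aligner, counter, strand setting or annotation, so reads of overlapping genes on either strand cannot be told apart. The 92 spike-in entries were left out. Names, exons and transcripts came from GENCODE M21, which lacked 241 genes holding 0.0107% of reads. Genes were filtered with filterByExpr, scaled with TMM and tested with edgeR 4.0.16 (R 4.3.3, robust quasi-likelihood, group only, Benjamini-Hochberg adjustment over 19263 genes, threshold 0.05). DESeq2 1.42.0, 3 other scalings, background subtraction, other filters, lanes, blocks and covariates were alternatives. Single values had exact permutation tests over 252 splits. Between libraries of 1 group, chi-square per degree of freedom was 1.76 to 4.48. The edgeR script was tested on data simulated with balanced known changes and no difference in background between the groups. That test does not bear on how the calls depend on scaling. All members were named. Up to 4 called genes per list, by smallest p and with a mean of at least 5 CPM, were named too, and for members of at least 100 CPM the 3 genes most like them; some of the genes so chosen are not reported here. The members and lists were chosen with earlier results of these data known.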

Additional observations from a re-analysis of the deposited data

Results flagged for a closer look

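In 26 sets of 5 libraries (the 10 members and 3 ratios in each group), 4 had 1 library far from the other 4. Far means that the gap to the nearest other library, divided by the range of the set, was above 0.71, Dixon's 95% critical value, which by its construction about 5% of independent sets exceed by chance. The sets share libraries and members and are not independent. Slc11a1 was lowest in control replicate 2, at 107 CPM, the library with the smallest total, 4.32 in units of 1000000 reads, and the highest olfactory receptor density, 0.825. Slc40a1 was lowest in control replicate 3, at 103 CPM. Aco1 was lowest in labelled knockdown replicate 1, at 61.3 CPM, and the same library had the highest Ireb2 to Aco1 ratio, 1.53. What set these libraries apart was not tested.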

How the results depend on the processing

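Of the 10 members, 8 were called higher. The count was 5 with upper-quartile scaling, 3 with library totals, 1 with low-background factors, and 0 with background subtraction, on lane 8 alone and with background density as a covariate (edgeR; 2, 6 and 1 at an unadjusted p under 0.05). With the covariate 2 of all 19263 genes were called higher. A stricter filter on low counts gave 6, without Aco1 and Steap3, and with 1 library left out the count was 7 to 8. No setting called a member lower, and 1, Ncoa4, had an unadjusted p under 0.05 in that direction, with low-background factors. Members whose groups did not overlap were 5 in TMM-scaled CPM and 2 per library total, an alternative chosen after seeing the data. Wider iron genes called higher were 29, and 13, 5, 2, 0, 0 and 0 under the same 6 settings, 16 with a stricter filter, and 25 to 35 with 1 library left out. Those called lower were 10, and 16 with library totals, 18 with low-background factors, 0 with subtraction, on lane 8 and with the covariate, 6 with no filter, 5 with the stricter filter, and 6 to 11 with 1 library left out, 6 being without labelled knockdown replicate 3. Background density did not overlap between the groups, so this covariate and the group can hardly be told apart.

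Signs turned as follows, in log2. Ftl1 was -0.11, -0.16 and -0.20 with upper-quartile, library-total and low-background scaling, -0.079 with the stricter filter, -0.24 on lane 8, and -0.032 and -0.020 without labelled knockdown replicates 1 and 3 (-0.032 to 0.15 with 1 library left out). Ncoa4 was -0.095, -0.15 and -0.19 under those scalings, -0.068 with the stricter filter, -0.24 with the covariate and -0.00085 without control replicate 2 (-0.00085 to 0.097 with 1 library left out). Steap3 was -0.021 with library totals, -0.060 with low-background factors, -0.056 with subtraction and -0.18 with the covariate. Epas1 was -0.022, -0.061, -0.036 and -0.035 in the same 4. With the covariate Tfrc was -0.033, Hmox1 -0.042 and Nfe2l2 -0.019, and Trf was -0.0096 with subtraction. The Slc40a1 to Tfrc difference, -0.05, was 0.042 on lane 8 and 0.0051 without control replicate 2, and ranged from -0.088 to 0.0051 with 1 library left out. That of Ireb2 to Aco1, 0.11, was 0.14 after subtraction, and ranged from 0.073 to 0.13, and that of Fth1 to Ftl1 from 0.20 to 0.38. The cause was not tested.

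Replicate numbers did not pair the libraries: same-numbered libraries had correlations of -0.10, -0.21, 0.01, 0.15 and 0.16, and 1 of 5 matched its own number best. With the replicate number as a block, 8 members were called higher. Depth limits Ftl1, Ncoa4 and the genes near background.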

Other observations

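Of the wider iron genes, 3 had too few reads to test. Hamp, which encodes the hormone hepcidin, averaged 0.531 ± 0.259 CPM in labelled knockdown and 0.965 ± 0.844 CPM in control libraries (SD, n = 5 each). Steap1 averaged 0.602 ± 0.228 CPM in labelled knockdown and 1.38 ± 0.841 CPM in control libraries. Ftmt, mitochondrial ferritin, averaged 0.216 ± 0.235 CPM in labelled knockdown and 0.444 ± 0.409 CPM in control libraries, at a background share of 186%, so its reads were fewer than the density of olfactory receptor reads would give.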
